A study of Mus musculus with 6 samples.

Results

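The genes described here are 10 alpha and beta tubulin isotypes of the mouse, 4 alpha (Tuba1a, Tuba1b, Tuba1c, Tuba4a) and 6 beta (Tubb2a, Tubb2b, Tubb3, Tubb4b, Tubb5, Tubb6). They were chosen by name, through their NCBI Gene numbers, among 17567 genes with a row in the count files. All 10 had a row and all 10 passed the filter on low counts, which 12209 genes passed. The libraries came from immature dendritic cells, which take up antigen and have not yet matured to present it. The cells were derived from femur and tibia marrow of male C57BL/6 mice aged 6 weeks. Until day 6 the marrow was kept in medium with 10% serum and the cytokines GM-CSF (20 ng/mL) and IL-4 (10 ng/mL), after which CD11c-bearing cells were purified on magnetic beads. The treated group then received 100 µM hydrogen peroxide (H2O2) during 24 h to mimic oxidative stress, while the other group is labelled control and its own culture over those hours is not described. Transcripts of metabolism and of the cytoskeleton were those the series set out to screen. No label ties a sample to its own mouse or culture dish, and the p-values below reflect the scatter of these samples alone, part or all of which may be technical.

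The labels give 3 samples per group, but the file of the third H2O2 sample held the same 17567 values as that of the first and was counted once. This left 5 distinct libraries, with totals between 16232604 and 16672491 estimated counts. Transcripts of 4 genes of the Y chromosome parted them into set A, with 1 control and 1 H2O2 library (control replicate 1 and H2O2 replicate 1; 96.4 to 106 counts per 1000000, CPM), and set B, with 2 control libraries and 1 H2O2 library (replicates 2 and 3 of the control and replicate 2 of H2O2; 0.120 to 0.427 CPM), although all mice were labelled male. H2O2 was therefore compared with control within the sets, by a fit over all genes with a term for the set. Itgax, the gene of the CD11c used for enrichment, stood between 1473 and 2177 CPM, and all 8 dendritic cell markers were detected.

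Microtubules are hollow filaments built from dimers of 1 alpha and 1 beta tubulin. A mammalian cell draws each chain from several genes whose products are nearly alike in the folded body and differ mostly in the acidic tail at the carboxyl end, which motors, associated proteins and modifying enzymes read. Tubulin mRNA is also controlled by its own product: when free dimers are in excess, the factor TTC5 recognizes the first residues of the nascent chain on the ribosome and the mRNA is degraded. In dendritic cells microtubules position organelles and serve transport and shape, and in dividing cells they form the spindle.

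The coding sequences are shown first, because both of these features are written in them and because their likeness decides how well reads can be told apart. They come from GENCODE transcripts of the mouse build GRCm38 and are written 5′ to 3′ on the transcript strand. The first 12 coding bases, with the fourth codon in capitals, parted the chains: it was TGC in the 4 alpha genes and ATC in the beta genes shown.
Tuba1a, Tuba1b and Tuba1c: atgcgtgagTGC
Tuba4a: atgcgcgagTGC
Tubb2a: atgcgcgagATC
Tubb2b: atgcgagagATC
Tubb3 and Tubb4b: atgagggagATC
Tubb5: atgagggaaATC

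The last 48 coding bases, which encode the end of the tail and close with the stop codon in capitals, showed where isotypes differ (Tuba1c against Tuba4a, Tubb3 against the other beta genes) and where they hardly do (Tubb2a against Tubb2b).
Tuba1c: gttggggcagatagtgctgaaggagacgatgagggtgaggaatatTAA
Tuba4a: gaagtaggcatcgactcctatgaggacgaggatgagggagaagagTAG
Tubb2a: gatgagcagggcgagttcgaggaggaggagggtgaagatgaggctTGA
Tubb2b: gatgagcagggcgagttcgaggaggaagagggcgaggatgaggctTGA
Tubb3: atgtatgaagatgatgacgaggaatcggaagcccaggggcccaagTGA
Tubb4b: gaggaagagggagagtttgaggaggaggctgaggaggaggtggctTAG
Tubb5: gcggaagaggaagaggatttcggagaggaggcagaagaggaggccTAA

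Over the whole coding sequence Tuba1a, Tuba1b and Tuba1c were 97.1% to 98.3% identical, and Tubb2a and Tubb2b were 96.5% identical. Of the 100-base windows of Tuba1b, 63.6% also occurred unchanged in Tuba1c, and 43.8% of those of Tubb2a occurred in Tubb2b. Every other pair of members of the same chain was between 80.2% and 85.9% identical and shared no such window. Deposited values were fractional in all 5 libraries for Tuba1a, Tuba1b and Tuba1c, and in 4 of the 5 for Tuba4a, Tubb2a and Tubb2b, although Tuba4a shared no such window with another member. Tubb3, Tubb4b, Tubb5 and Tubb6 had whole counts in every library. For Tuba1a, Tuba1b, Tuba1c, Tubb2a and Tubb2b it is uncertain which copy the reads came from. For Tuba4a the source of the fractions was not examined, and part of its reads may be uncertain too.

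The close copies also lie side by side in GRCm38.p6. On chromosome 15, Tuba1b (98931429 to 98934390), Tuba1a (98949847 to 98953501) and Tuba1c (99029891 to 99038105) follow each other with gaps of 15.5 and 76.4 kb. On chromosome 13, Tubb2a (34074278 to 34078008) and Tubb2b (34127008 to 34130354) are 49.0 kb apart. Tubb5 lies on chromosome 17 (35833920 to 35838301), Tubb4b on chromosome 2 (25222158 to 25224702), Tuba4a on chromosome 1 (75214972 to 75221261), Tubb3 on chromosome 8 (123411553 to 123422015) and Tubb6 on chromosome 18. The longest RefSeq-matched coding transcript of each member had 4 exons and between 1598 bases (Tubb4b) and 2840 bases (Tuba4a).

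Levels of different genes were compared per length, as CPM per kilobase of that transcript. Tuba1b and Tubb5 stood first, with means over the 5 libraries of 281 ± 54.6 (SD) and 256 ± 74.7 CPM per kb, and their ranges overlapped. All libraries of both were above every library of the other members. Tuba1c (88.0 ± 19.6), Tuba1a (69.2 ± 8.11), Tubb4b (55.0 ± 7.25), Tubb6 (36.7 ± 12.2), Tubb2a (24.7 ± 15.4) and Tuba4a (20.1 ± 1.79 CPM per kb) followed, and neighbours among these 6 overlapped in their ranges over the libraries. Tubb2b (1.16 ± 0.983) and Tubb3 (0.284 ± 0.145 CPM per kb), isotypes best known from neurons, were the scarcest. Their ranges overlapped each other and lay below all the rest.

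**Figure D1:**
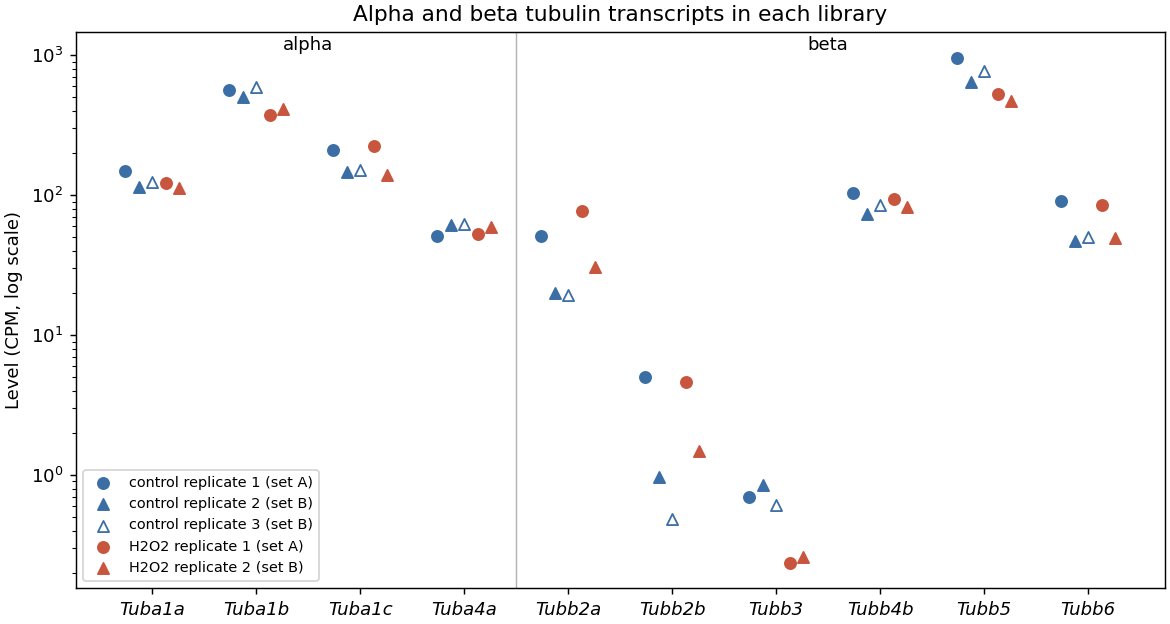
Level of each alpha and beta tubulin transcript in each of the 5 distinct libraries (vertical axis, CPM on a log scale). Blue points are control and red points H2O2 libraries, circles set A and triangles set B. In Tubb5, Tuba1b and Tubb3 both red points lie below every blue point, and in Tubb2a each red point lies above the blue points of its own set. Tubb3 passed the filter on low counts only through its control libraries.

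With H2O2, 2 of the 10 isotypes fell, Tubb5 and Tuba1b, and 1 rose, Tubb2a. The other 7 were not called. A gene was called where edgeR's quasi-likelihood test with the set term gave a p of at most 0.05 after Benjamini-Hochberg adjustment over all 12209 genes. Among all tested genes 8.54% were called, 4.61% lower and 3.93% higher, so 2 and 1 of 10 genes are counts too small to say how the family compares. The median log2 change of the 10 was -0.03, against 0.01 over all tested genes. In 3 of them, Tubb5, Tuba1b and Tubb3, both H2O2 libraries lay below every control library, as did 10.7% of all tested genes, and in none above (23.7% of all genes in either direction). Against the controls of their own set, 5 of the 10 lay beyond every one in the same direction in both sets, the 3 just named and Tuba1a below and Tubb2a above, against 56.5% of all genes. Tubb3 passed the filter on low counts only through its control libraries, so neither place of Tubb3 is evidence of a fall. The fit assumes 1 common change in both sets and leaves 2 residual degrees of freedom. The edgeR test draws the variance of each gene towards a value estimated over all genes. Its standard errors and p-values therefore do not rest on a gene's own scatter alone. Without the set term edgeR called none of the 10 and none of all genes (0%), with 853 of all genes at an unadjusted p under 0.05. The same 1 isotype was called higher and the same 2 lower with RLE size factors (8.16% of all genes called). So they were with a floor of 10 CPM on average (10.4%), DESeq2 (8.21%), limma-voom (8.21%), and without control replicate 2 (5.97%). Without control replicate 1 the set term took up H2O2 replicate 1, so only 1 H2O2 library bore on the change. The log2 changes were then -0.60 for Tubb5, -0.42 for Tuba1b and 0.63 for Tubb2a.

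Tubb5, the beta isotype of most dividing and blood cells, was the most abundant member in CPM. It stood at 964 CPM in control replicate 1, 642 in replicate 2 and 775 in replicate 3, and at 533 and 471 CPM in H2O2 replicates 1 and 2. Every control library was above both H2O2 libraries. The means were 794 ± 162 (SD, n = 3) and 502 ± 43.7 CPM (n = 2). In the fit with the set term it fell 1.63-fold, with a log2 change of -0.70 ± 0.11 (SE) and an adjusted p of 0.0215 by edgeR. In set A the log2 change was -0.86. In set B it depended on the control library, at -0.45 against control replicate 2 and -0.72 against control replicate 3.

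Tuba1b, a housekeeping alpha isotype, stood at 570 CPM in control replicate 1, 502 in replicate 2 and 591 in replicate 3, against 375 and 410.0 CPM in H2O2 replicates 1 and 2. Here too the groups did not overlap. The means were 554 ± 46.3 (SD, n = 3) and 393 ± 24.6 CPM (n = 2), and the fitted fall was 1.41-fold, with a log2 change of -0.49 ± 0.09 and an adjusted p of 0.0296 by edgeR. Within set A the log2 difference was -0.60, while set B gave -0.29 and -0.53 against control replicates 2 and 3. This call was the less firm one. When Tuba1a, Tuba1b and Tuba1c were summed to 1 value the log2 change was -0.33 with an adjusted p of 0.0529 by edgeR, in a fit where 8.54% of all genes were called. The call was also lost without control replicate 3 (adjusted p = 0.0839 by edgeR, 2.51% of genes called), without H2O2 replicate 1 (0.0587, 12.4%) and with the replicate block (0.0559, 4.54%). In the replicate block, replicate 3 had only a control library, which therefore did not bear on the change. That fit and the one without control replicate 3 rest on the same libraries and are not separate checks. With no filter beyond 1 count both Tuba1b (adjusted p = 0.0679 by edgeR) and Tubb5 (0.0560) lost the call, and 0.622% of genes were called.

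Tubb2a, a beta isotype abundant in brain and present in many other cells, moved the other way. It stood at 51.0 CPM in control replicate 1, 19.9 in replicate 2 and 19.4 in replicate 3, and at 77.7 and 30.5 CPM in H2O2 replicates 1 and 2. The groups overlapped, since control replicate 1 was above H2O2 replicate 2, but each H2O2 library was above the controls of its own set. In the fit it rose 1.54-fold, with a log2 change of 0.62 ± 0.07 and an adjusted p of 0.0149 by edgeR. The 3 pairs of an H2O2 library and a control of its set gave nearly the same size, 0.61 in set A, and 0.61 and 0.65 in set B. The pairs of set B share 1 H2O2 library and are not independent. Summing Tubb2a with Tubb2b left the log2 change at 0.60 (adjusted p = 0.0161 by edgeR).

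All 3 calls were lost without H2O2 replicate 2, which leaves set B with control libraries only: the adjusted p by edgeR was then 0.118 for Tubb5, 0.138 for Tuba1b and 0.110 for Tubb2a, with log2 changes of -0.86, -0.60 and 0.61. Only 1 gene of 12520 (0.00799%) was called in that fit. Without the set term the adjusted p by edgeR was 0.704, 0.702 and 0.783 in the same order.

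Among the isotypes not called, 4 well expressed ones stood near 0. Tuba1c, a housekeeping alpha isotype, had a log2 change of -0.01 ± 0.08, with 209, 147 and 152 CPM in control replicates 1 to 3 and 223 and 140 CPM in H2O2 replicates 1 and 2. The higher value of each group was its set A library. Tuba4a, an alpha isotype whose gene does not encode the terminal tyrosine of the other alpha tails, stood at -0.01 ± 0.07, between 50.8 and 61.9 CPM in all 5 libraries. Tubb4b, a widely expressed beta isotype, stood at -0.04 ± 0.09, with 104, 73.9 and 85.3 CPM in control and 94.4 and 82.1 CPM in H2O2 libraries. Tubb6, a beta isotype of many tissues other than brain, stood at -0.03 ± 0.08, with 90.4, 47.0 and 50.4 CPM in control and 85.1 and 49.4 CPM in H2O2 libraries. These intervals are standard errors and do not show that the levels were equal.

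The remaining 3 were less certain. Tuba1a, the alpha isotype of developing neurons, stood at -0.18 ± 0.08 (adjusted p = 0.215 by edgeR), with 150 CPM in control and 122 CPM in H2O2 of set A, and 115 and 124 against 113 CPM in set B. Tubb3, the neuronal beta isotype, had only 12, 14 and 10 counts in control and 4 and 4 counts in H2O2 libraries, and its log2 change of -1.49 ± 0.48 was not called (adjusted p = 0.103 by edgeR). It passed the filter on low counts only through its control libraries. The neuronal markers Map2, Snap25 and Syt1 together stood between 0.488 and 2.03 CPM in control and between 0.887 and 1.30 CPM in H2O2 libraries. Tubb2b had 87, 16 and 8 counts in control and 78 and 23 in H2O2 libraries, with a log2 change of 0.29 ± 0.35. Its set A libraries were high in both groups.

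**Figure D2:**
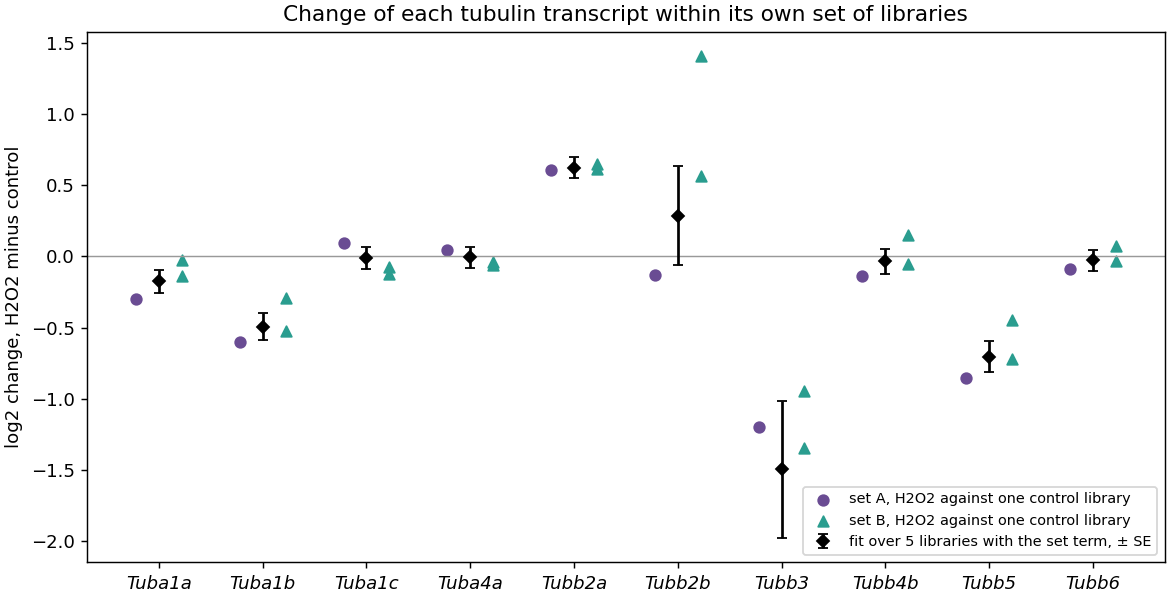
Log2 change of each isotype, H2O2 minus control. Circles compare the 2 libraries of set A, triangles compare the H2O2 library of set B with each of its 2 control libraries, and black diamonds give the fit over 5 libraries with the standard error. All 3 comparisons lie below 0 for Tubb5, Tuba1b, Tubb3 and Tuba1a and above 0 for Tubb2a, while Tubb2b is spread from -0.13 to 1.40. Tubb3 passed the filter on low counts only through its control libraries.

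The change in set A was set against the change in set B by an interaction term, which leaves 1 residual degree of freedom. None of the 10 isotypes was called (0.0164% of all tested genes were) and none had an unadjusted p under 0.05 by edgeR, against 1674 of all 12209 genes. For Tubb5 the difference between the sets was -0.27 ± 0.18 on the log2 scale and for Tubb2a -0.02 ± 0.13. With so few libraries this does not show that the changes were alike.

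More isotypes differed between the sets than with H2O2. Set A was higher than set B in 6 of the 10 and lower in 1, at an adjusted p of at most 0.05 by edgeR. Among all tested genes 36.0% differed, 19.1% higher and 16.9% lower. Tubb2b was 4.84-fold higher in set A (log2 2.27 ± 0.34), Tubb2a 2.57-fold (1.36 ± 0.07), Tubb6 1.80-fold (0.85 ± 0.07) and Tuba1c 1.48-fold (0.56 ± 0.07). Tubb5 (log2 0.33 ± 0.10) and Tubb4b (0.31 ± 0.09) were higher by less, and Tuba4a was lower (-0.23 ± 0.07). Tuba1b, at -0.02 ± 0.09, was not called. The sets were read from Y-linked transcripts alone, and no label says what they are.

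The tubulin transcripts were also summed, with Tuba8 and the scarce Tubb1 and Tubb4a included. Summed alpha tubulin stood at 1054, 918 and 1024 CPM in control replicates 1 to 3 and at 847 and 816 CPM in H2O2 replicates 1 and 2. Summed beta tubulin stood at 1218, 788 and 934 CPM in control and at 797 and 637 CPM in H2O2 libraries. Both sums were lower with H2O2 in each set. On the log2 scale the differences were -0.32 (set A) and -0.25 (set B) for alpha, and -0.61 and -0.43 for beta. These sums have no test. In bulk RNA, fewer cells of a type and less RNA per cell cannot be told apart.

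The make-up of the pool differed as well. Tubb5 made up 70.5%, 73.3% and 75.3% of the beta pool per kilobase in control replicates 1 to 3, and 55.8% and 64.0% in H2O2 replicates 1 and 2. The shares in control were all above those in H2O2 libraries. Tubb2a made up 6.13% and 13.4% in control and H2O2 of set A, and 3.74% and 3.11% against 6.82% in set B. Tubb4b held 12.6% to 14.0% in control and 16.4% and 18.5% in H2O2 libraries, although its own level was not called. In the alpha pool Tuba1b held 57.7%, 59.0% and 61.8% in control and 48.2% and 54.6% in H2O2 libraries. A share rises where others fall, so these shares show unequal change and not the direction of any 1 gene.

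**Figure D3:**
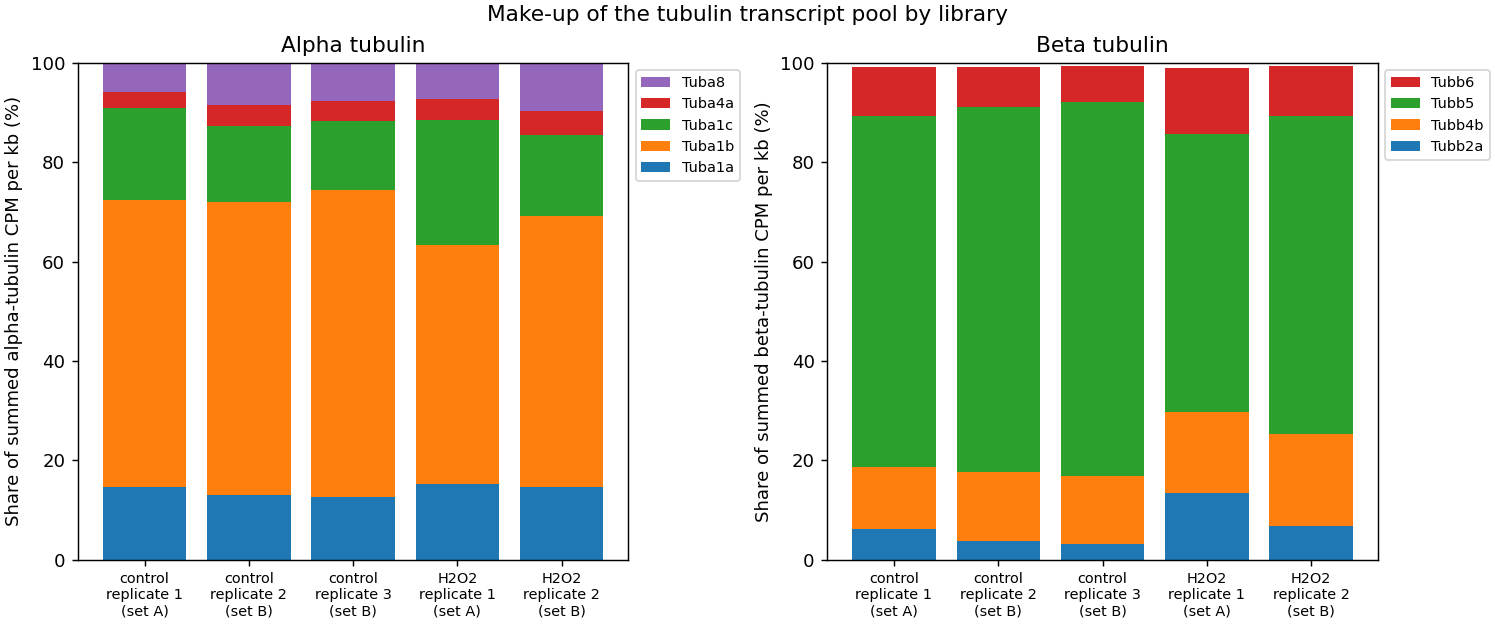
Share of each isotype in the summed alpha (left) and beta (right) tubulin CPM per kilobase, in percent, for each of the 5 distinct libraries. Isotypes that stayed at 1% or less in every library are not drawn. The Tubb5 share is 70.5% to 75.3% in the 3 control libraries and 55.8% and 64.0% in the 2 H2O2 libraries.

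The 250 bases before the RefSeq start site were read for the 3 isotypes that were called, with matches to searched motifs in capitals. Each motif was searched on both strands: the CCAAT box (CCAAT), the cell cycle homology region (TTTGAA) and the core of the antioxidant response element (TGANNNNGC). Tubb5 had CCAAT on its own strand at 2 places, Tuba1b and Tubb2a had no match to any of the motifs.
Tubb5, chr17:35838302-35838551, minus strand: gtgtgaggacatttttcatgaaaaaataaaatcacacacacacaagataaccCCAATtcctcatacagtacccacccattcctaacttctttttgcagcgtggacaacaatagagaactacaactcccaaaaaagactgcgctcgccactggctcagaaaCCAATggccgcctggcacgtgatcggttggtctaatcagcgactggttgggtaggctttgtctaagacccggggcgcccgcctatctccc
Tuba1b, chr15:98934391-98934640, minus strand: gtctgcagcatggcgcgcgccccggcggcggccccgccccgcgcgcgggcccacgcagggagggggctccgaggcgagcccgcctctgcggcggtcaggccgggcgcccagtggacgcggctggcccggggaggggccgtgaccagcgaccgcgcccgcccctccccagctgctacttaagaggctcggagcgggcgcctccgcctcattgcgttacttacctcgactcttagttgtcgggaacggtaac
Tubb2a, chr13:34078009-34078258, minus strand: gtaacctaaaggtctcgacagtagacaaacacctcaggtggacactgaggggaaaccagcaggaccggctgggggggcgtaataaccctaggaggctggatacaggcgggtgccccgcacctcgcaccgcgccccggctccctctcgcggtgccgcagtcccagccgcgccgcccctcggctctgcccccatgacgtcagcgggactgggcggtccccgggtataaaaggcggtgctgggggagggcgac

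Promoter windows were given for 8 of the 10 members in the RefSeq table of GRCm38.p6 (not Tubb2b and Tubb6). CCAAT occurred in 5 of them (Tuba1a, Tuba1c, Tubb3, Tubb4b and Tubb5), against 33.8% of 32851 windows of the same length. Tubb4b alone had it 5 times and also had TTTGAA, found in 15.99% of windows. The antioxidant response element core occurred in 4 members, none of them called, against 35.2% of windows. GC content was 49.2% before Tubb5, 68.4% before Tubb2a and 75.6% before Tuba1b, with a median of 52.4% over all windows. A match is a run of letters and was not tested as a site.

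Other tubulin genes were given whatever their values. Tuba8, an alpha isotype, was well expressed, between 74.1 and 95.1 CPM, with a log2 change of -0.01 ± 0.07. Tube1, which encodes the epsilon tubulin of centrioles, fell by 0.77 ± 0.18 on the log2 scale (adjusted p = 0.0455 by edgeR), from 7.90, 5.80 and 7.32 CPM in control to 4.85 and 3.69 CPM in H2O2 libraries. That call was lost with DESeq2, with limma-voom and without any 1 of the 5 libraries. Tubg1, the gamma tubulin that starts microtubules, stood at -0.10 ± 0.11, and Tubd1, delta tubulin, at -0.36 ± 0.13 (adjusted p = 0.140 by edgeR). Tubb4a and Tubb1, the beta isotype of platelets, had at most 35 counts in a library. Tuba3a and Tubal3 had 0 counts in all libraries, which allows up to 0.194 CPM per library by counting error alone, Tubg2 had 1 count in 1 library, and Tuba3b was not analysed here.

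Lists of other microtubule genes are read against the 8.54% of all tested genes that were called (3.93% higher and 4.61% lower). In tubulin folding and autoregulation 1 of 23 genes rose and none fell, with a median log2 change of -0.01. The gene that rose was Cct3, a subunit of the chaperonin that folds tubulin and actin, by 0.28 ± 0.07 on the log2 scale (adjusted p = 0.0483 by edgeR). Tcp1, another subunit and the most abundant gene of the list, stood at -0.27 ± 0.07 (adjusted p = 0.0537). Ttc5, the autoregulation factor, held between 32.1 and 34.9 CPM in all 5 libraries, with a log2 change of 0.08 ± 0.08. DESeq2 called none of the list and limma-voom 1 higher. With RLE size factors or the replicate block edgeR called none, and with the floor of 10 CPM it called 1 lower and none higher. The gamma-tubulin ring complex gave 0 calls among 11 genes by edgeR, DESeq2 and limma-voom, with 3 at an unadjusted p under 0.05 by edgeR and a median log2 change of -0.09. Its most abundant gene was Akap9, a scaffold of the Golgi and centrosome, which stood at 0.00 ± 0.07.

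Of 18 tested genes that modify tubulin tails 1 rose, Ttll11, which adds glutamate chains, by 1.06 ± 0.21 on the log2 scale. It was scarce, with 1.34, 2.48 and 2.07 CPM in control and 2.78 and 4.79 CPM in H2O2 libraries. DESeq2 and edgeR with the replicate block called none of the 18. Sirt2, a deacetylase with tubulin among its substrates and the most abundant of the list, stood at 0.16 ± 0.07. Among 31 motor genes that act outside mitosis, the kinesins Kif1c (0.39 ± 0.07) and Kif3a (0.51 ± 0.12) rose and none fell, but DESeq2 called only 1 and edgeR with the replicate block none. Dync1h1, the dynein heavy chain, stood at 0.05 ± 0.07.

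Genes of plus ends, stabilizers and destabilizers moved both ways, with 3 of 28 rising and 2 falling. Dst, a giant linker of filaments, rose by 0.72 ± 0.10 and Map1b, a microtubule-associated protein, by 0.91 ± 0.15 on the log2 scale. Camsap1, which binds minus ends, rose by 0.36 ± 0.08 and is named because the count was small, after its value was seen. Both genes that fell destabilize microtubules and are high in dividing cells. Stmn1 (stathmin) fell by 1.48 ± 0.21 on the log2 scale, from 85.7, 22.6 and 36.2 CPM in control to 27.0 and 11.98 CPM in H2O2 libraries, and Kif2c by 1.72 ± 0.31. Macf1, another giant linker and the most abundant of the list, stood at 0.14 ± 0.07. Without H2O2 replicate 2 none of these microtubule lists held a call by edgeR, and without control replicate 2 or 3 those of folding, tail modification and motors held none. For scale, the actin genes Actb (log2 -0.26 ± 0.09) and Actg1 (-0.31 ± 0.08) were both lower in H2O2 than in every control library but not called (adjusted p = 0.113 and 0.0574 by edgeR). DESeq2, limma-voom and edgeR with the floor of 10 CPM each called 1 of these 2 lower.

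Cell cycle genes were lower with H2O2, as Tubb5 and Tuba1b were. Of 30 listed genes 29 were called lower and none higher by edgeR, with a median log2 change of -1.47, against the 0.01 of all tested genes. DESeq2 and limma-voom also called 29 lower, but none was called without the set term or without H2O2 replicate 2, 13 without H2O2 replicate 1 and 2 with no filter beyond 1 count. Nusap1, a spindle protein, fell by 1.96 ± 0.24 and Aurkb, a mitotic kinase, by 1.26 ± 0.16 on the log2 scale. Summed over the list, levels were 2626, 914 and 1496 CPM in control replicates 1 to 3 and 1091 and 597 CPM in H2O2 replicates 1 and 2. Control replicate 1 was highest and H2O2 replicate 2 lowest both in this sum and in Tubb5, while control replicate 2 was below H2O2 replicate 1 in the sum and above it in Tubb5. Tuba1b followed another order, highest in control replicate 3 and lowest in H2O2 replicate 1. The log2 difference between the sets was 0.33 for Tubb5 and -0.02 for Tuba1b, against a median of 1.20 over the cell cycle list. Mki67, whose protein marks cycling cells, had a log2 change of -1.39 ± 0.24. Among the 29, log2 changes ran from -0.45 (Mcm2) to -2.07 (Ube2c), with Tubb5 at -0.70 and Tuba1b at -0.49. The part of dividing cells in the tubulin values was not tested.

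**Figure D4:**
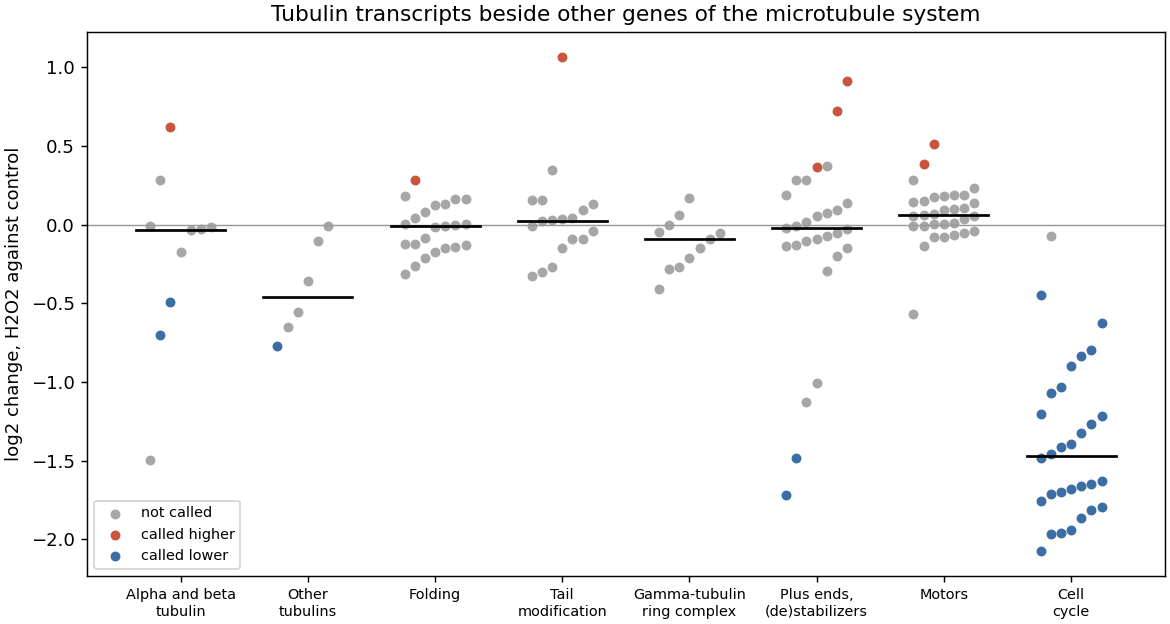
Log2 change with H2O2 of each tested gene in 8 groups of genes, from the fit over 5 libraries with the set term. Red points were called higher and blue points lower, grey points were not called, and black bars are medians. Nearly all cell cycle genes are blue, 29 of 30, while the tubulin isotypes hold 1 red and 2 blue points.

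Markers of other cells and of dendritic cells are read against all tested genes, of which 3.93% were called higher and 4.61% lower. Without the set term edgeR called no gene, so none of the calls below held there. Macrophage and monocyte markers (9 of 10 tested, 1 higher and 2 lower) summed to between 2909 and 3202 CPM in control and between 3420 and 3762 CPM in H2O2 libraries. Mast cell and basophil markers (8 tested, 5 lower) summed to between 34.8 and 85.5 CPM in control and between 11.3 and 26.9 CPM in H2O2 libraries, and eosinophil markers (4 tested, 1 higher and 3 lower) to between 32.0 and 58.5 and between 24.3 and 32.0 CPM. Neutrophil markers (9 of 10 tested, 1 higher and 3 lower) lay between 542 and 1226 and between 949 and 1719 CPM. The higher one, Mmp8, was also the most abundant tested, while Mpo and Ctsg were among those lower. Control and H2O2 ranges overlapped for neutrophil markers and, narrowly, for eosinophil markers. Dendritic cell markers (8 tested, 5 lower) lay between 5363 and 5524 CPM in control and between 4542 and 5259 CPM in H2O2 libraries. Platelet and megakaryocyte markers (3 of 5 tested, 2 higher and 1 lower) lay between 65.0 and 74.6 and between 113 and 153 CPM. Ppbp, the most abundant tested, and Pf4 were higher and Itga2b lower, so these markers did not move together. No erythroid or T and B cell marker was tested, and those lists stayed at or below 1.71 CPM in every library. Their part in the tubulin values was not tested.

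The genes with levels most like the called isotypes over the 5 libraries were found by the root-mean-square distance of log2 CPM profiles, each centred on its own mean, among 8669 genes of at least 10 CPM on average. Mtbp (0.04), Limd2 (0.05) and Hjurp (0.06) were nearest to Tubb5, where the median distance of all genes was 0.42. Blm (0.03), Cgas (0.04) and Gstcd (0.04) were nearest to Tuba1b, with a median of 0.32. Ppfibp2 (0.11), Rab7b (0.14) and Fbxo32 (0.16) were nearest to Tubb2a, with a median of 0.79. Nqo1, a quinone reductase of the antioxidant response given whatever its value, was not among these nearest genes. It rose with H2O2 by 1.22 ± 0.09 on the log2 scale, where 3.93% of all tested genes were called higher. Within each treatment it was higher in set A, as were 19.1% of tested genes by the set term. It stood at 30.6 CPM against 12.7 and 13.7 CPM in control and at 67.5 against 32.1 CPM in H2O2 libraries. A link between Nqo1 and Tubb2a was not tested.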

How the data were processed

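Each deposited file holds, per the file headers, an unscaled read count for every gene, and its fractions show it to be an estimated count. HISAT, Bowtie2 and the build GRCm38.p6 appear in the submitters' processing notes, without roles. The counter, its annotation and strand setting are (like any filter) not given in the sources used here: overlapping, antisense and near-identical genes may share reads. A RefSeq table of GRCm38.p6 named 17520 of 17567 rows (99.7%). Counts were rounded, filtered with filterByExpr (minimum count 10, total 15) and scaled with TMM factors. CPM use the TMM-adjusted library size, except those of the Y-linked genes, which use the library total (at least 100 counts in set A). The main fit was edgeR 4.0.16 (R 4.3.3) with a term for the set. Standard errors are the absolute log2 change over the square root of F, and log2 changes of library pairs use a prior count of 2. Alternatives used no set term, a replicate block, RLE factors, DESeq2 1.42.0, limma-voom 3.58.1, other filters, summed close copies, and each library left out. Members, lists and tests were chosen with earlier results of these data known. Named genes were the members and other tubulins, and of each list the 2 called genes of lowest p in each direction and the most abundant. Tail sequences of some isotypes are not reported here.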

Additional observations from a re-analysis of the deposited data

How the results depend on the processing

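With the set term edgeR called 480 genes higher and 563 lower, and among the isotypes 1 higher and 2 lower. Without the set term all 4 counts were 0, and without a filter beyond 1 count they were 60, 42, 1 and 0. With the replicate block in place of the set term (1 residual degree of freedom) they were 220, 334, 1 and 1, the isotype lost being Tuba1b (adjusted p = 0.0559 by edgeR). The block of replicate 3 held only a control library, which therefore did not bear on the change. Same-numbered libraries deviated together from their group means (r = 0.81 and 0.71 over genes). Control replicate 3 also did so with H2O2 replicate 2 (r = 0.66), which has another number but the same set. The deviations of 2 H2O2 libraries mirror each other, so these values are not independent. The numbers also part the sets, 2 pairs do not settle a pairing, and no label gives one. Summing close copies left 1 isotype lower. Leaving out 1 library gave from 1 to 1248 genes higher, from 0 to 816 lower, from 0 to 1 isotype higher and from 0 to 2 lower. The 7 isotypes not called stayed so under each alternative that gave them an adjusted p (Tubb2b and Tubb3 were below the 10 CPM floor, Tuba1a, Tuba1c and Tubb2b had no value of their own once copies were summed, and Tubb3 had none in DESeq2). The sign of the change turned in 5 of them. Without the set term Tuba1c stood at 0.10, Tubb4b at 0.0080 and Tubb6 at 0.10, and with the replicate block Tuba1c at 0.012, Tuba4a at 0.0047 and Tubb4b at 0.0038. Leaving out 1 library, log2 changes ran from -0.11 to 0.095 for Tuba1c, from -0.057 to 0.045 for Tuba4a, from -0.13 to 1.03 for Tubb2b, from -0.14 to 0.046 for Tubb4b and from -0.089 to 0.022 for Tubb6. Under the same omissions they ran from -0.86 to -0.59 for Tubb5, from -0.60 to -0.41 for Tuba1b and from 0.60 to 0.64 for Tubb2a. Where a set A library was left out, the set term took up the other, so only set B bore on the change.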
